A study of Rattus norvegicus with 36 samples.

Results

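The 36 expression arrays of this rat thyroid study fell into 2 sets by the level of Iyd, the iodotyrosine deiodinase with which thyroid follicular cells recycle iodide. The sets were chosen by the measured Iyd signal: an array was called follicle-rich when its signal lay above -4 on a log2 scale on which 0 is the 75th percentile of that array's own signals, and follicle-poor at -4 or below. This gave 19 follicle-rich and 17 follicle-poor arrays of 36 in all. Each array came from the thyroid of a single adult male Sprague Dawley rat, killed 24 h after an intravenous injection of 131I, a beta-emitting radionuclide, in saline. The injected activities were 4700, 1300, 760, 340, 260, 170, 88 and 9 kBq, and the control rats (0 kBq) were mock-treated, with 4 rats in each of the 9 groups. All rats, controls included, were anaesthetised with sodium pentobarbital before they were killed, and no genetic change is stated for them.

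A thyroid lobe is built of follicles, spheres of epithelial cells that take up iodide, couple it to thyroglobulin and store the product in the lumen. C cells, which secrete calcitonin, lie between the follicles, and the parathyroid glands, which secrete parathyroid hormone, lie on or within the rat thyroid lobes. The trachea with its cartilage rings, the oesophagus with its squamous lining and the striated neck muscles lie next to the gland.

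Promoters of 4 genes are shown because these genes mark the cell types of the thyroid lobe described below: Iyd and the sodium/iodide symporter Slc5a5 for follicular cells, Calca for C cells and Pth for parathyroid cells. Each is the 250 bases before the gene start in RefSeq (build GRCr8), read 5′ to 3′ on the strand of the gene. Capitals mark TNAAGTG, a core motif of NKX2-type homeodomain factors such as Nkx2-1, searched on both strands.
Iyd, chr1:42409888-42410137, + strand: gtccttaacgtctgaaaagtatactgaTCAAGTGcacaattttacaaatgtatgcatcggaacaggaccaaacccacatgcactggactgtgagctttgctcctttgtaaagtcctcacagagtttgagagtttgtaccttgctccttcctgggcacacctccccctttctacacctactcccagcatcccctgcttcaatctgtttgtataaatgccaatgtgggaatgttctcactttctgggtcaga
Slc5a5, chr16:18580455-18580704, + strand: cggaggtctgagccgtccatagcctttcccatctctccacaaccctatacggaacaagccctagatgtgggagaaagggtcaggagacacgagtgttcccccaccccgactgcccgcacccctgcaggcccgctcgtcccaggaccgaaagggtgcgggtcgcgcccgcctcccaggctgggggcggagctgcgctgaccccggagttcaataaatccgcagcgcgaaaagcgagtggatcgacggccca
Calca, chr1:178317530-178317779, - strand: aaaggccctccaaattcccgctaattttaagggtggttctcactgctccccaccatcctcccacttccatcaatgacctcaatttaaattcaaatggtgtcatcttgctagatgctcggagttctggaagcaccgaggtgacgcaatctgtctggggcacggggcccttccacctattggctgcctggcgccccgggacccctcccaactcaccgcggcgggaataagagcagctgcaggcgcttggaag
Pth, chr1:176946035-176946284, - strand: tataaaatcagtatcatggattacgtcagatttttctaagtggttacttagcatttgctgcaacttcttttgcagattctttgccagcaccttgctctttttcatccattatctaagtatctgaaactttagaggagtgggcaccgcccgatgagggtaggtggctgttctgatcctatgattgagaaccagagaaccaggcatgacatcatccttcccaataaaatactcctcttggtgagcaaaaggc
The Iyd window holds 1 match and the other windows hold 0. Among all 33469 promoters with an entry, 9.89% hold the motif in the same window. The share was 8.88% of the 12383 genes tested, 7.80% of the 2076 genes with a probe higher in the follicle-rich arrays and 8.02% of the 2120 genes with a probe higher in the follicle-poor arrays. A match in these letters is a description of the sequence only. The promoter of Tg was not analysed here.

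Both sets were spread over the design. The 9 and 340 kBq groups held 3 follicle-poor arrays each, the 88, 170, 260 and 1300 kBq groups 2 each, and the 760 kBq, 4700 kBq and control groups 1 each, so that 16 of the 32 irradiated rats and 1 of the 4 control rats gave a follicle-poor array. Each of the 5 slides and both scan days held arrays of both sets. The 75th percentile of the signal, which sets the scale of an array, was 3237 ± 559 intensity units (SD, 19 arrays) in the follicle-rich and 2394 ± 488 (SD, 17 arrays) in the follicle-poor arrays, and the difference passed a two-sided exact permutation test within kBq groups (p = 6.71e-05, adjusted p = 0.000201 over 3 array measures). Probes well above background made up 71.9% ± 5.11 against 68.0% ± 3.44 (exact permutation p = 0.000543, adjusted p = 0.000814), and outlier spots 0.755% ± 0.116 against 0.872% ± 0.385 (exact permutation p = 0.490, the same after adjustment). The follicle-rich array of 340 kBq animal 4 stood apart with 88.3% of probes well above background. The part of overall signal in the gene differences was not tested beyond the other scalings given in the closing section.

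Iyd chose the sets, so its values are a description. Among the follicle-rich arrays its level ran from -3.28 over a median of 0.75 to 1.45, and among the follicle-poor arrays from -8.21 over a median of -7.54 to -5.05. Just inside the limit lay the array of 760 kBq animal 1 at -3.28, while the next lowest follicle-rich array, control animal 2, was at -0.26. Just outside lay 260 kBq animal 3 at -5.05 and 88 kBq animal 1 at -5.39. Iyd was well above background on all 19 follicle-rich and on 2 of the 17 follicle-poor arrays.

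Over the 30366 probes other than that of Iyd, 4118 (13.6%) were higher in the follicle-rich and 4882 (16.1%) higher in the follicle-poor arrays, together 29.6%, at an adjusted p below 0.01 and a change of at least 1.5-fold in limma with the kBq group as a block. Probes past both limits are referred to as called. With the adjusted p limit at 0.05 the shares were 14.9% and 19.3% (together 34.2%), and with at least 2-fold change 8.48% and 8.92% (together 17.4%). The median log2 difference, follicle-rich minus follicle-poor, was -0.17 over all probes. For 146 probes (0.481%) every follicle-rich array lay above every follicle-poor array, and for 18 probes (0.0593%) the reverse held. Differences are given below as log2 values ± SE and levels as lowest, median and highest on the 75th-percentile scale of each array. The p-values concern the link of a gene with the Iyd level across these rats and not an effect of 131I. Where a gene was well above background on only some arrays of a set, their number is given, and the printed difference then rests partly on signals near background. In bulk tissue, fewer cells of a type and less RNA per cell cannot be told apart.

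The transcription factors that maintain the follicular cell state separated the arrays completely or nearly so. All 5 genes of that list, which includes the TSH receptor, were called higher in the follicle-rich arrays, with a median difference of 4.92. Pax8, a paired-box factor that drives follicular genes, ran from -0.98 over 2.90 to 4.28 in the follicle-rich arrays and from -7.51 over -5.66 to -2.30 in the follicle-poor arrays. The sets did not overlap, and the difference was 7.94 ± 0.41, or 245-fold (adjusted p = 9.24e-15), with Pax8 well above background on 12 of the 17 follicle-poor arrays. Nkx2-1, the homeodomain factor of thyroid and lung, ran from -1.17 over 2.64 to 3.33 against from -6.53 over -5.39 to -2.21, also without overlap. Its difference was 7.58 ± 0.38 (192-fold, adjusted p = 6.09e-15, 16 of 17 follicle-poor arrays well above background), and taken within each of the 9 groups of injected activity it ran from 6.95 to 8.13. Hhex, another homeodomain factor, differed by 4.70 ± 0.34 without overlap. Tshr, the receptor for thyrotropin, differed by 4.92 ± 0.40, with 18 of the 19 follicle-rich arrays above all follicle-poor arrays. Foxe1, a forkhead factor, had the smallest difference of the list, 2.19 ± 0.26, and was well above background on all 17 follicle-poor arrays.

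Among the genes that make thyroid hormone, Tg, Duox2, Duoxa1 and Duoxa2 were called higher in the follicle-rich arrays, and Duox1 was not called. Tg, the thyroglobulin scaffold, was nearly constant in the follicle-rich arrays, from 6.78 over 6.98 to 7.48, and spread widely in the follicle-poor arrays, from -4.51 over -0.55 to 6.21. The sets did not overlap for Tg either, and the difference was 5.85 ± 0.77 (adjusted p = 4.43e-07). The highest Tg levels among the follicle-poor arrays, 6.21 and 6.20, belonged to 260 kBq animal 3 and 88 kBq animal 1, the arrays nearest to the Iyd limit. Duox2, the oxidase that supplies hydrogen peroxide, and its maturation factor Duoxa2 differed by 3.87 ± 0.44 and 4.28 ± 0.43, the latter with 7 of 17 follicle-poor arrays well above background. Duoxa1, the maturation factor of Duox1, differed by 2.17 ± 0.58, with overlap. Its highest follicle-poor array, at 1.56, lay above every follicle-rich array (highest 1.49). The relative Duox1 had a difference of 1.35 ± 0.59 and was not called (adjusted p = 0.0560).

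**Figure D1:**
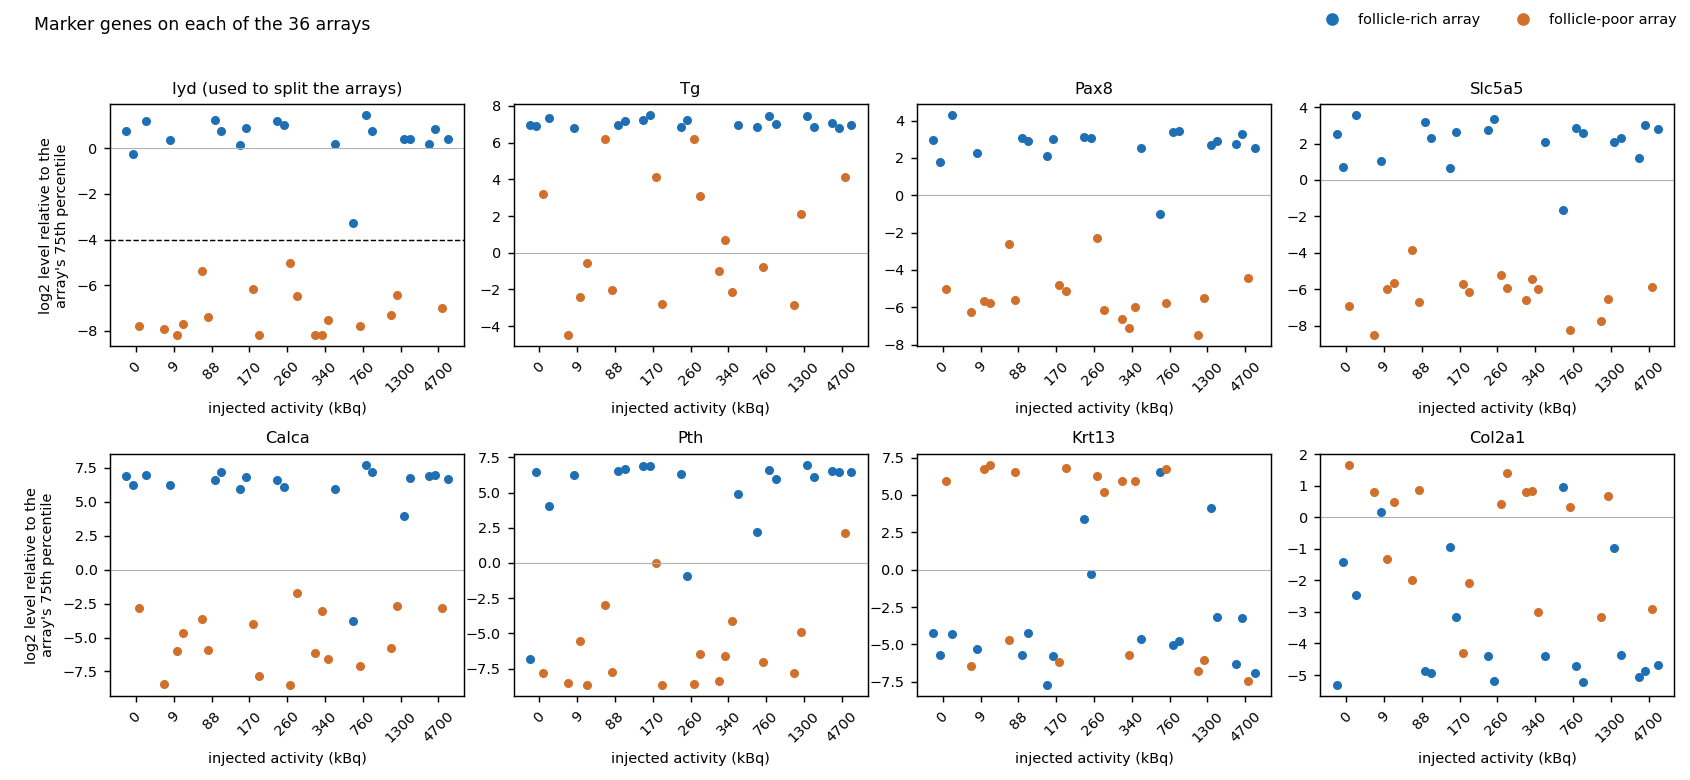
Levels of 8 genes on each of the 36 arrays (y axis, log2 relative to the array's 75th percentile) by injected activity (x axis, kBq, 4 rats per group), with follicle-rich arrays in blue, follicle-poor arrays in orange and the Iyd limit dashed. Pax8 and Slc5a5 leave a gap between the sets, Tg spreads from -4.51 to 6.21 in the follicle-poor arrays, and Krt13 and Col2a1 overlap.

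Iodide transport and ion channel genes had 5 of 8 called, all higher in the follicle-rich arrays (median 2.85). Kcnq1 was not called by the probe that stood for it, but another of its probes was called lower in the follicle-rich arrays (-0.78, limma adjusted p = 0.000286). Slc5a5, which brings iodide into the follicular cell, ran from -1.64 over 2.54 to 3.54 against from -8.54 over -5.98 to -3.85, and was well above background on 7 of the 17 follicle-poor arrays. The sets did not overlap, and the measured difference was 8.47 ± 0.41 (adjusted p = 2.24e-15). The anion transporter Slc26a7 was well above background on all 19 follicle-rich and 0 of the 17 follicle-poor arrays, so only a bound can be given, at least 41.1-fold higher (adjusted p = 4.06e-16). For such bounds the follicle-poor level is taken on each array as the lowest signal among probes well above background, or the probe's own signal if that is higher. The measured means of Slc26a7 were -1.004 and -8.32. The potassium channel subunit Kcnj16, well above background on only 2 of the 17 follicle-poor arrays, had a measured difference of 7.65 ± 0.37, and the chloride channel Ano1 by 2.43 ± 0.33. Slc26a4, pendrin, was not well above background on any array of either set.

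Among deiodinases and thyroid hormone transporters 2 of 5 genes were called higher and 1 lower in the follicle-rich arrays (median -0.058). Over all probes 13.6% were called higher and 16.1% lower in these arrays. Dio1, a deiodinase that converts thyroxine to its active form, ran from -1.51 over 2.37 to 3.03 against from -6.05 over -4.39 to -3.07 and differed by 6.50 ± 0.35 (90.8-fold, adjusted p = 2.39e-14), with 16 of 17 follicle-poor arrays well above background. The transporter Slc16a10 was the one called lower, with -1.26 ± 0.35 (adjusted p = 0.00331, 18 of 19 follicle-rich arrays well above background). Of 9 genes for uptake and digestion of thyroglobulin, 5 were called higher in the follicle-rich arrays and 1 lower (median 0.66). Lrp2, megalin, differed by 4.42 ± 0.56 (12 of 17 follicle-poor arrays well above background). Asgr1, a receptor subunit for desialylated glycoproteins, had a measured difference of 5.11 ± 0.31 with 3 of 17 follicle-poor arrays well above background, and Cpq, a secreted peptidase, one of 3.52 ± 0.23, both without overlap. The lysosomal cathepsins differed less, with Ctsl at 0.72 ± 0.11 and Ctsb at 0.66 ± 0.12. Ctsd was lower in the follicle-rich arrays, at -1.02 ± 0.12, a call lost with quantile normalization.

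All 14 chaperones and folding factors of the endoplasmic reticulum were called higher in the follicle-rich arrays, with a median of 1.90 against -0.17 over all probes. Hspa5, the main Hsp70 of that compartment, ran from 3.70 over 4.94 to 5.997 against from 2.89 over 3.16 to 3.38, so that the lowest follicle-rich array lay just above the highest follicle-poor array. Its difference was 1.85 ± 0.16, or 3.62-fold (adjusted p = 1.61e-10). The largest differences of the list were those of Creld2 (3.56 ± 0.28) and Sdf2l1 (3.40 ± 0.25), both induced under stress of this compartment, and the smallest was that of Dnajb9 (0.79 ± 0.20). The mean of the list covered 0.18 to 0.87 in the follicle-poor and 0.98 to 3.35 in the follicle-rich arrays.

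Epithelial junction and simple keratin genes were called higher in the follicle-rich arrays for 12 of 14 (median 3.93). Krt18, a keratin of simple epithelia, differed by 6.48 ± 0.67 and the claudins Cldn3 and Cldn7, tight junction proteins, by 6.09 ± 0.72 and 6.47 ± 0.68. These 3 genes overlapped between the sets. Krt18 reached 3.87 on the highest follicle-poor array and was well above background on 15 of the 17, as was Cldn3, while Cldn7 was on 11.

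Genes of C cells and neuroendocrine cells were called for 11 of 13, all higher in the follicle-rich arrays (median 3.42). Calca, which encodes calcitonin, ran from -3.77 over 6.67 to 7.70 against from -8.51 over -5.79 to -1.71. All but 1 of the follicle-rich arrays lay above every follicle-poor array, the exception being 760 kBq animal 1 at -3.77, and the difference was 11.03 ± 0.83 (adjusted p = 2.16e-11, 10 of 17 follicle-poor arrays well above background). Chga, the granule protein chromogranin A, was well above background on only 2 of the 17 follicle-poor arrays and had a measured difference of 9.86 ± 0.61. Its relative Chgb differed by 5.44 ± 0.60. Among the follicle-rich arrays Chga was lowest on 260 kBq animal 2 (-1.81), 760 kBq animal 1 (-1.63) and control animal 1 (-0.41). There Calca was at 6.11, -3.77 and 6.90, and Pth, parathyroid hormone, at -0.93, 2.22 and -6.80. Which cell type gave the Chga signal was not tested. Somatostatin (Sst), made by some C cells, was well above background on 14 of the 19 follicle-rich and 0 of the 17 follicle-poor arrays, at least 6.19-fold higher, with measured means of -3.72 and -8.37 (adjusted p = 0.000867).

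Parathyroid genes followed with 4 of 5 called higher in the follicle-rich arrays (median 5.17). Pth, parathyroid hormone, ran from -6.80 over 6.43 to 6.95 against from -8.68 over -7.05 to 2.12, a measured difference of 10.86 ± 1.08 (adjusted p = 4.19e-09). Pth was well above background on 18 of the 19 follicle-rich and 6 of the 17 follicle-poor arrays. The follicle-rich array of control animal 1 was at the low end, although its Iyd level was 0.77, and the follicle-poor arrays of 4700 kBq animal 3 and 170 kBq animal 3 were at 2.12 and 0.03. Casr, the calcium-sensing receptor, did not overlap between the sets and differed by 7.55 ± 0.45 (16 of 17 follicle-poor arrays well above background). Gcm2, the factor that specifies the parathyroid, was well above background on 14 follicle-rich and 0 follicle-poor arrays, at least 7.06-fold higher, with measured means of -3.55 and -8.31 (adjusted p = 1.57e-06).

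Cartilage genes were called for 7 of 10, all higher in the follicle-poor arrays (median -2.63). Cnmd, chondromodulin, ran from -8.61 over -6.49 to 0.73 in the follicle-rich and from -5.75 over -0.20 to 1.46 in the follicle-poor arrays, a difference of -3.71 ± 0.82 (adjusted p = 0.000403), with 10 of the 19 follicle-rich and all 17 follicle-poor arrays well above background. Col2a1, the main collagen of cartilage, differed by -2.67 ± 0.70, Chad by -3.31 ± 0.82, Comp by -2.76 ± 0.60 and Acan, the proteoglycan aggrecan, by -2.90 ± 0.80. Acan was well above background on 7 of the 19 follicle-rich and 12 of the 17 follicle-poor arrays, and Chad on 18 and 16. Col2a1 lay above the array's 75th percentile on 10 of the 17 follicle-poor and on 2 of the 19 follicle-rich arrays, 760 kBq animal 1 (0.96) and 9 kBq animal 2 (0.17).

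Squamous epithelium genes had a median difference of -4.08 over 12 genes, but only 3 were called, Krt1 (-4.09 ± 1.04), Sbsn (-4.95 ± 1.45) and Cnfn (-4.07 ± 1.23), all proteins of stratified epithelium. Over all probes 16.1% were called in that direction. The probe that stood for Tp63, above the 75th percentile on all 19 follicle-rich and 17 follicle-poor arrays, was not called. Another probe of Tp63 was called at -3.66 (limma adjusted p = 0.00249). Krt1 was well above background on 8 follicle-rich and 15 follicle-poor arrays, Sbsn on 12 and 16, and Krt13 on 16 and 12. The spread within the sets was wide. Krt13, the keratin of the oesophageal lining, ran from -7.73 over -4.63 to 6.51 in the follicle-rich and from -7.44 over 5.90 to 6.99 in the follicle-poor arrays, a difference of -4.32 ± 1.79 that was not called (adjusted p = 0.0456). The list mean was above the 75th percentile on 10 of the 17 follicle-poor and 3 of the 19 follicle-rich arrays, and the latter were 760 kBq animal 1 (4.01), 1300 kBq animal 3 (1.15) and 260 kBq animal 1 (0.22). On the other 7 follicle-poor arrays it was between -5.04 and -3.85. Without 1300 kBq animal 3, 8 of the 12 genes were called.

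Fast skeletal muscle genes lay far above the 75th percentile on nearly all arrays of both sets. The list mean ran from -3.73 over 6.22 to 6.79 in the follicle-rich and from 5.83 over 6.91 to 7.53 in the follicle-poor arrays. Pygm, muscle glycogen phosphorylase, was the only one of the 14 genes called (-2.33 ± 0.71, adjusted p = 0.00766), and the median difference was -1.70. Ckm, muscle creatine kinase, ran from -2.93 over 6.76 to 7.32 against from 6.80 over 7.57 to 8.30, and its difference of -1.79 ± 0.68 was not called (adjusted p = 0.0286). The low values came from 4 follicle-rich arrays, 760 kBq animal 3, 88 kBq animal 3, 9 kBq animal 2 and 4700 kBq animal 2, with list means of -3.73, 1.38, 2.56 and 3.12. Without 760 kBq animal 3, the array with the lowest muscle and the highest Iyd level, 11 of the 14 genes were called. Among 12 slow and cardiac-type muscle genes (median -0.60), 3 were called, all higher in the follicle-poor arrays, beside 16.1% of all probes. The 3 genes were Actc1 (-4.11 ± 0.79), Ankrd1 (-3.02 ± 0.71, well above background on 18 follicle-rich arrays) and Casq2 (-2.12 ± 0.52). The slow myosin Myh7 ran from -6.49 over 2.96 to 5.34 against from -3.38 over 2.33 to 5.60.

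**Figure D2:**
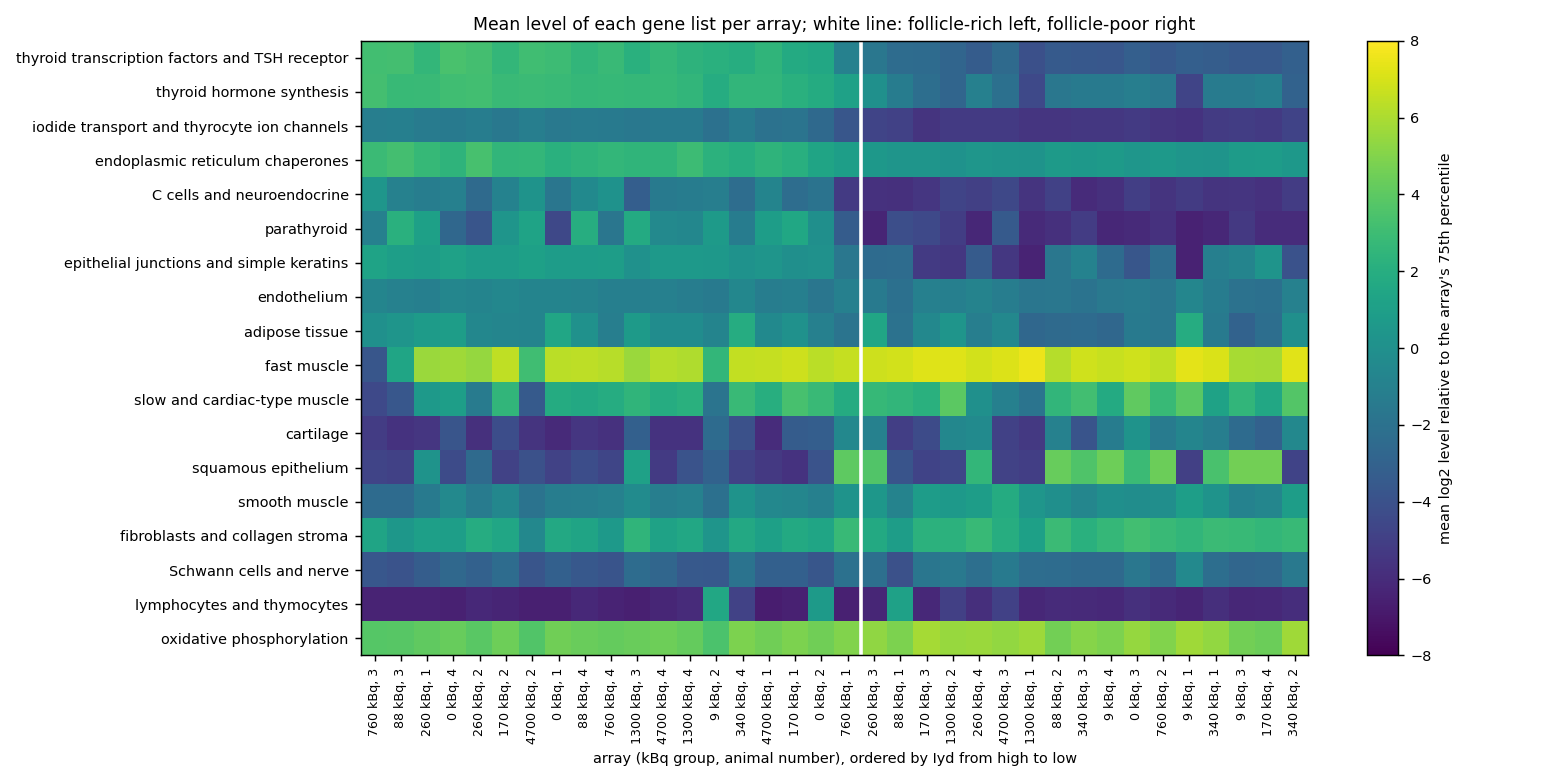
Mean log2 level of 18 gene lists (y axis) on the 36 arrays (x axis, ordered by Iyd level from high to low), with the colour giving the level relative to each array's 75th percentile and the white line the border between the sets. The thyroid lists, the list of C cells and neuroendocrine cells and the parathyroid list darken to the right of the line. Fast muscle is lower on 4 follicle-rich arrays than on the rest, and squamous epithelium is bright on 10 of the 17 follicle-poor arrays.

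Stroma and nerve were higher in the follicle-poor arrays for some genes of each list. Of fibroblast and collagen genes 6 of 11 were called (median -1.02), with Fn1, fibronectin, at -1.35 ± 0.25 and Mfap5, a microfibril protein, at -1.55 ± 0.30. Of smooth muscle genes 5 of 8 were called (median -1.08), with Smtn, smoothelin, at -2.23 ± 0.31. Of Schwann cell and nerve genes 5 of 9 were called (median -0.93), with the myelin gene Pmp22 at -1.04 ± 0.23. Of 14 genes of oxidative phosphorylation, 12 were called higher in the follicle-poor arrays (median -1.19), among them Ndufs1 of complex I at -1.40 ± 0.19 and Cycs, cytochrome c, at -1.35 ± 0.22. Cox6a1, a subunit of cytochrome c oxidase, was not called, with a difference of 0.49 ± 0.10. The part of neighbouring tissue in the levels of the thyroid genes was not tested.

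Endothelial genes were called for 3 of 10, all higher in the follicle-rich arrays (median 0.079). Plvap, the diaphragm protein of fenestrated capillaries, ran from 2.19 over 3.87 to 4.57 against from -0.05 over 0.94 to 1.84, without overlap. Its difference was 2.78 ± 0.23 (adjusted p = 9.24e-11). Kdr, a VEGF receptor, differed by 1.21 ± 0.19 and Emcn, endomucin, by 0.75 ± 0.18, whereas the general endothelial marker Pecam1 ran from 0.015 over 0.42 to 0.94 against from -0.63 over 0.29 to 1.38. Called higher in the follicle-rich arrays were 13.6% of all probes and 2 of 10 adipose genes (list median 0.57). These were Ucp1 (6.77 ± 1.11, well above background on 18 follicle-rich and 9 follicle-poor arrays) and Cidea (1.60 ± 0.49), which mark brown fat, while the general adipocyte gene Adipoq ran from 1.04 over 2.24 to 3.90 against from -1.95 over 1.13 to 4.30.

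Of 6 erythroid genes (median -0.71) Hba-a1 (-1.32 ± 0.18), Hbb (-0.75 ± 0.20) and the haem enzyme gene Alas2 (-1.65 ± 0.34) were higher in the follicle-poor arrays, and Slc4a1, the red cell anion exchanger, was higher in the follicle-rich arrays (1.06 ± 0.29). No macrophage gene (0 of 10, median -0.50) and no lymphocyte or thymocyte gene (0 of 13, median 0.13) was called by limma, where 6 and 0 of them had an unadjusted p below 0.05. The lymphoid list mean was above the 75th percentile on 3 arrays, of which 9 kBq animal 2 (1.57) and control animal 2 (0.71) were follicle-rich and 88 kBq animal 1 (1.14) was follicle-poor. Rag1, a recombinase of developing lymphocytes, was well above background on 2 follicle-rich arrays and 1 follicle-poor array, reaching 3.66 and 3.64. Airway and cilia genes (8 tested, median 0.085) had 1 call in each direction, beside 13.6% and 16.1% of all probes. These calls were Sec14l3 at 1.83 ± 0.41 (well above background on 18 follicle-rich and 8 follicle-poor arrays) and Tppp3 at -3.17 ± 0.36.

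**Figure D3:**
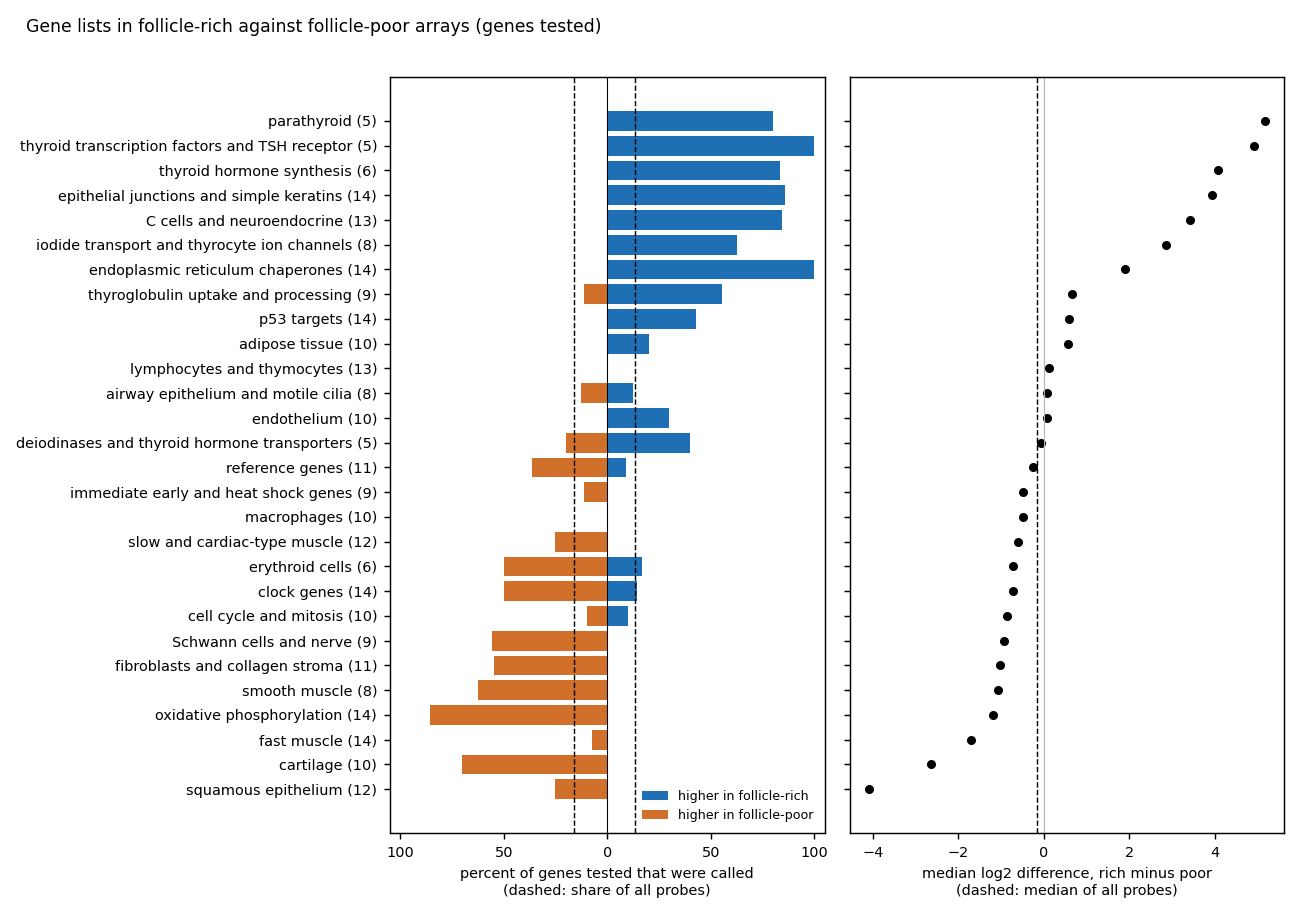
Left, percentage of the tested genes of each list that were called higher in follicle-rich (blue, to the right) or follicle-poor arrays (orange, to the left), with the shares over all probes, 13.6 and 16.1 percent, dashed. Right, median log2 difference of each list, from -4.08 for squamous epithelium to 5.17 for parathyroid, with the median over all probes (-0.17) dashed.

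Genes often used as references differed between the sets, with 4 of 11 called higher in the follicle-poor and 1 higher in the follicle-rich arrays (median -0.24). Gapdh (-1.34 ± 0.23), Hprt1 (-0.62 ± 0.081), Sdha (-0.78 ± 0.14) and Pgk1 (-0.78 ± 0.16) were higher in the follicle-poor arrays, though of these 4 only Gapdh was called with quantile normalization, and B2m (0.95 ± 0.15) was higher in the follicle-rich arrays. On 14 of the 17 follicle-poor arrays Gapdh lay above every follicle-rich array. Tarbp2 ran from -0.79 over -0.45 to -0.16 against from -0.59 over -0.30 to 0.12 and was not called. Of 10 cell cycle genes (median -0.86) Tyms was higher in the follicle-rich (1.11 ± 0.34, well above background on 16 follicle-poor arrays) and Bub1 in the follicle-poor arrays (-1.51 ± 0.44). Of 9 immediate early and heat shock genes (median -0.48) Dusp1 was higher in the follicle-poor arrays (-0.63 ± 0.17). Over all probes 13.6% were called higher in the follicle-rich and 16.1% higher in the follicle-poor arrays.

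Outside the lists, the 10 named genes with the largest differences towards the follicle-rich arrays were Klhl14, Cryba2, Pla2g10, Igsf5, Pex5l, Sall1, Gng7, Egfl6, Plppr3 and Nol4. Klhl14, a kelch-family protein, had the largest measured difference, running from -2.13 over 1.95 to 2.50 against from -8.97 over -8.40 to -4.10. Its difference was 9.17 ± 0.42 without overlap (adjusted p = 1.2e-15). Cryba2, a crystallin, had a measured difference of 8.18 ± 0.72 and Pla2g10, a secreted phospholipase A2, one of 8.08 ± 0.38. On the 17 follicle-poor arrays Klhl14 was well above background on 2, Cryba2 on 3 and Pla2g10 on 1, so the sizes and the order of these differences rest largely on signals near background. Sall1, a zinc-finger transcription factor, and Nol4 were not well above background on any follicle-poor array, and were at least 43.4-fold and at least 30.1-fold higher in the follicle-rich arrays (adjusted p = 8.3e-16 and 9.02e-15). The measured means were -0.93 and -8.13 for Sall1, and -1.45 and -8.41 for Nol4.

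Towards the follicle-poor arrays the 10 genes were Sln, Lce1f, Slurp2, Fam25a, Tgm3, Gpr15lg, Mybph, Ostn, Lce1m and Aldh3a1. Sln, sarcolipin, an inhibitor of the muscle calcium pump, ran from -5.30 over -2.01 to 6.03 against from -2.74 over 6.30 to 7.04. Its difference was -5.46 ± 1.07 (adjusted p = 0.000113). Lce1f and Lce1m are late cornified envelope genes, and Tgm3 is a transglutaminase that cross-links such envelopes. They differed by -4.23 ± 1.06, -3.52 ± 1.02 and -4.15 ± 1.23. Mybph, a myosin-binding protein, and Ostn, osteocrin, a secreted protein of muscle and bone, differed by -3.79 ± 0.59 and -3.69 ± 0.46. Of the 19 follicle-rich arrays, Lce1f was well above background on 12, Ostn on 15 and Mybph on 18.

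**Figure D4:**
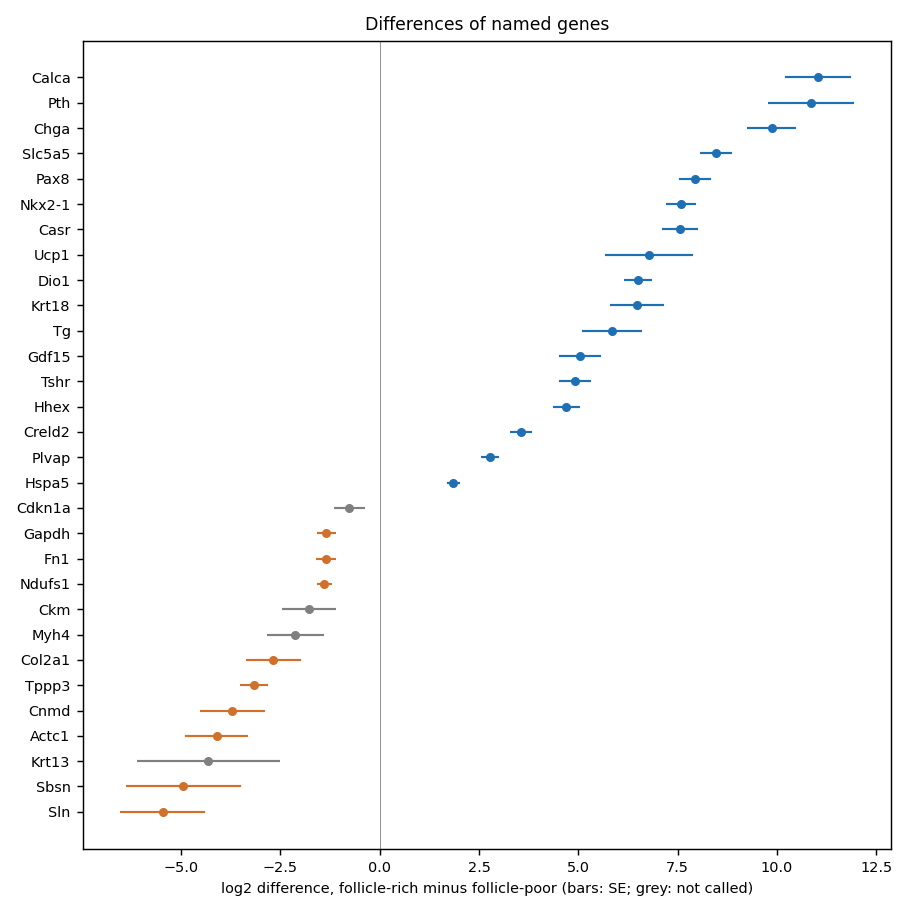
Log2 difference, follicle-rich minus follicle-poor (x axis), of 30 genes (y axis) as points with the SE from the fit with the kBq group as a block as bars, in blue for called higher in follicle-rich, orange for called higher in follicle-poor and grey for not called. The points run from -5.46 for Sln to 11.03 for Calca.

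Targets of p53, the factor that answers DNA damage, were called for 6 of 14 genes between the sets, all higher in the follicle-rich arrays (median 0.58). Gdf15, a secreted stress cytokine, ran from -3.42 over 0.22 to 4.08 against from -6.85 over -4.79 to -3.58, without overlap. Its difference was 5.03 ± 0.53 (adjusted p = 1.1e-08, 16 of 17 follicle-poor arrays well above background). This average covers unlike groups. The follicle-rich and follicle-poor means were -1.86 and -4.41 (1 array) in the controls, and 2.91 and -5.97 at 1300 kBq. The pro-apoptotic Bbc3 differed by 2.23 ± 0.21, the stress sensor Sesn2 by 1.53 ± 0.18 and Btg2, an anti-proliferative factor, by 1.47 ± 0.29. Zmat3 differed by 0.82 ± 0.21, although another of its probes was at 0.091 and not called. Cdkn1a, the cell cycle inhibitor p21, had a difference of -0.76 ± 0.40 and was not called (adjusted p = 0.112), but without the follicle-poor array of 4700 kBq animal 3 the difference was -1.25 and was called (adjusted p = 0.00111).

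Within the follicle-rich arrays alone, each irradiated group was compared with the 3 follicle-rich controls in limma, with the spread estimated over all 19 arrays. At 4700 kBq (3 arrays) 3 probes (0.00988%) were called, those of Cdkn1a, Pln, a regulator of the muscle calcium pump, and Svop, a synaptic vesicle protein named after its value was seen. Cdkn1a was at 0.18, 0.76 and 1.61 in the controls and at 4.55, 4.92 and 4.99 at 4700 kBq, a log2 ratio of 3.97 ± 0.33 (limma adjusted p = 0.000609). Without 1 of these 6 arrays in turn, the ratio was 3.63 to 4.35 and remained called, while 2 to 6 probes were called in all, with 5 and 6 of them without control animal 1 and control animal 2. The means of Cdkn1a were 0.85 in the controls, 0.40 at 9 kBq (1 array), 1.02 at 88 kBq, 1.44 at 170 kBq, 2.01 at 260 kBq, 2.11 at 340 kBq (1 array), 3.12 at 760 kBq, 3.98 at 1300 kBq and 4.82 at 4700 kBq. From 9 kBq upwards they followed the order of the injected activity, which was also the order of injection. The part of tissue content in these means was not tested.

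Other p53 targets did not pass the limit at 4700 kBq. Gdf15 had a mean of -1.86 in the controls, 2.91 at 1300 kBq and 3.51 at 4700 kBq, with a ratio of 5.38 ± 0.88 at 4700 kBq (limma adjusted p = 0.0950). Mdm2, the ubiquitin ligase of p53, had a ratio of 1.59 ± 0.25 (limma adjusted p = 0.0692), and Aen, a p53-induced nuclease, one of 2.46 ± 0.32 (limma adjusted p = 0.0191). In the other groups 7 probes (0.0231%) were called at 9 kBq, where a single array stood against the controls, 1 probe (0.00329%) at 170 kBq, and 0 at 88, 260, 760 and 1300 kBq, where 2415, 778, 2902 and 917 probes had an unadjusted limma p below 0.05. At 340 kBq 3496 probes (11.5%) were called, all resting on the 1 array with 88.3% of probes well above background. Of the 14 p53 targets 0 were called in any group other than 4700 kBq, and of the 14 clock genes 0 in any group. Dbp, a clock output factor, had log2 ratios of -2.34 at 9 kBq, -2.46 at 88 kBq, -2.13 at 170 kBq and -2.51 at 260 kBq within the follicle-rich arrays, with limma adjusted p from 0.0789 to 0.413, and over both sets without a set term they were -2.69, -2.72, -2.63 and -2.35.

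In the follicle-poor arrays Cdkn1a was at 3.25 on the control array, between 2.92 and 3.50 at 9 kBq, between 2.35 and 2.81 at 1300 kBq and at 0.99 at 4700 kBq. Gdf15 was at -4.41 on the control array, between -6.85 and -5.08 at 1300 kBq and at -4.79 at 4700 kBq. The follicle-poor array of 88 kBq animal 1 was also at 0.99 for Cdkn1a. Actc1, a slow and cardiac-type muscle gene, was at 3.072 on that array, at 1.758 on 1300 kBq animal 1 and at 1.998 on 4700 kBq animal 3. Cdkn1a was at 0.99, 2.35 and 0.99 there. On the other follicle-poor arrays Actc1 ran from 6.456 to 7.446 and Cdkn1a from 2.813 to 3.749. The part of tissue content in the Cdkn1a levels of this set was not tested. Mdm2 was at 0.38 on the follicle-poor control array, between 0.83 and 1.06 at 1300 kBq and at 1.11 at 4700 kBq, while its means in the follicle-rich arrays were -0.32, 0.72 and 1.27. The control and 4700 kBq groups had 1 follicle-poor array each, so no comparison of these groups was made within that set. The test of the difference between the sets is given in the closing section.

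**Figure D5:**
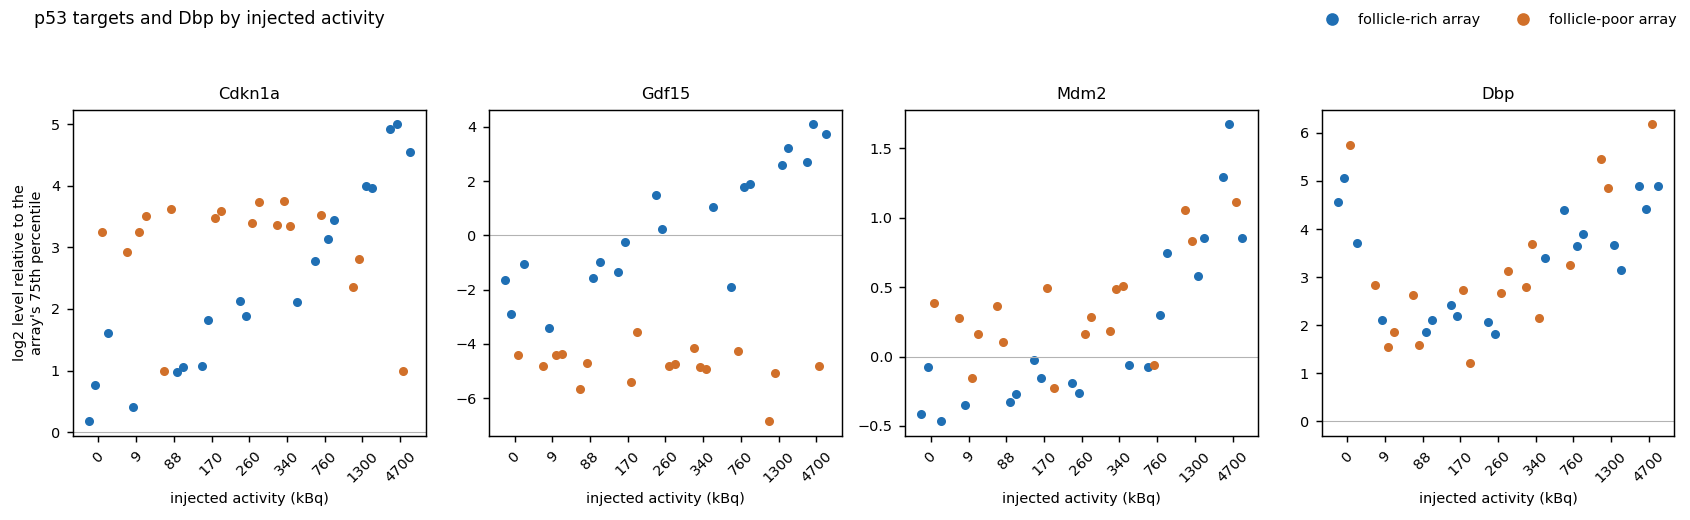
Levels of Cdkn1a, Gdf15, Mdm2 and Dbp (y axis, log2 relative to the array's 75th percentile) on each array by injected activity (x axis, kBq), with follicle-rich arrays in blue and follicle-poor arrays in orange. In the follicle-rich arrays the mean of Cdkn1a runs from 0.40 at 9 kBq to 4.82 at 4700 kBq, while the follicle-poor arrays at 1300 and 4700 kBq lie between 0.99 and 2.81. Of these, 1300 kBq animal 1 and 4700 kBq animal 3 were low in the muscle gene Actc1 (1.758 and 1.998).

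Of 14 clock genes, 7 were called higher in the follicle-poor and 2 higher in the follicle-rich arrays (median -0.71). Over all probes these shares were 16.1% and 13.6%. Nr1d1, a repressor in the clock loop, differed by -1.60 ± 0.38 and Cry1, another repressor, by -0.75 ± 0.14. Npas2, a partner of Bmal1, differed by 1.18 ± 0.22, although another of its probes was at -0.23 and not called. Dbp ran from 1.81 over 3.65 to 5.06 against from 1.21 over 2.80 to 6.17 and was not called (-0.47 ± 0.23, adjusted p = 0.0976). The rats were injected in the order of activity with the controls last, so the order of injection and the kBq group cannot be told apart, and the sets were compared with the group as a block.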

How the data were processed

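The deposited scanner files hold the intensity of each spot on 1-colour Agilent arrays, with 1 array per rat, background subtracted and detrended by the authors' Feature Extraction software (10.7.3.1). The authors also deposited a table of quantile-normalized intensity on a linear scale, used as an alternative, and the submitters' processing notes name Partek. Here the log2 of the processed signal was taken, the array's 75th percentile subtracted and the spots of a probe averaged, without control spots and outlier flags. A probe counted as well above background when the scanner software marked most of its spots so. RefSeq accessions named 17998 of 30367 probes (15154 symbols). The highest-mean probe stood for a gene. Not every gene of the lists is reported here.

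The sets were compared in limma 3.58.1 (R 4.3.3) with the kBq group as a block and Benjamini-Hochberg adjustment over 30366 probes, and called at an adjusted p below 0.01 and 1.5-fold. Array measures were compared by exact permutation within groups (1327104 arrangements). Named genes were members of 28 lists and, outside them and per direction, the 10 called genes with the largest difference that were well above background on every array of the higher set. The members and the lists were chosen with earlier results of these data known. On simulated data for this comparison (30267 probes), 16%, 48%, 94% and 100% of log2 changes of 0.58, 1, 2 and 4 were called, and 0 unchanged probes. The simulation drew probes independently, with the same normal spread in both sets. In the data the spread could differ, as for Tg (SD 0.24 follicle-rich, 3.37 follicle-poor), so these rates may not carry over. The number of arrays limits the precision. Animals of the same number were not paired. The median correlation of their deviations from the group means was -0.026, against -0.030 for different numbers. Of the 144 same-number pairs 57 correlated above 0.1. The alternatives concerned scaling, background, dim probes, blocks, weights, limits and single arrays.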

Additional observations from a re-analysis of the deposited data

Results flagged for a closer look

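In 4 of the 9 kBq groups 1 array lay far from the other 3 in Iyd, which chose the sets. The control array of animal 3 was at -7.79 and the others at -0.26 to 1.19, and the 4700 kBq array of animal 3 was at -7.00 and the others at 0.18 to 0.86. The 340 kBq array of animal 4 was at 0.19 and the others at -8.21 to -7.54, and the 9 kBq array of animal 2 was at 0.36 and the others at -8.18 to -7.69. The 75th percentile of the 4700 kBq array of animal 3 was 2092 intensity units, against 3527 to 3809 for the rest of its group. The gaps in Iyd restate how the sets fall in these groups, so nothing is read from their number, and for the other measures chance gives such a gap in about 1 in 20 groups.

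For Cdkn1a the differences between kBq groups were not the same in the follicle-rich and follicle-poor arrays, with an adjusted p for the set by group interaction of 0.000247 in limma and 0.00994 without the 340 kBq group. It was the only one of 284 list genes below 0.01 with either choice of arrays. Over all probes 1196 (3.94%) passed that limit, and 24 (0.0790%) without the 340 kBq group, whose only follicle-rich array was the one with 88.3% of probes well above background. At 0, 9, 340, 760 and 4700 kBq one of the sets held a single array. Animal 3, the only follicle-poor array at 4700 kBq, and the follicle-poor animal 1 at 1300 kBq were low in Actc1 (1.998 and 1.758). The part of tissue content in the Cdkn1a interaction was not tested.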

How the results depend on the processing

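The probes called higher in the follicle-rich arrays numbered 2863 to 4510 and those higher in the follicle-poor arrays 4230 to 6746 under the other scalings, filters, blocks, weights and Iyd limits and at an adjusted p below 0.05, against 4118 and 4882, and 2575 and 2709 at 2-fold. The share of calls higher in the follicle-rich arrays was 45.8%, with 37.4% under normexp background correction and 50.7% in the authors' table. The median log2 difference over all probes was -0.17, with -0.04 under quantile normalization and -0.29 under normexp. Leaving out 1 array gave 3969 to 4309 and 4281 to 5791, the last without 340 kBq animal 4. With the animal number as a block in place of no pairing, 4074 and 4673 probes were called. List counts (higher in the follicle-rich, rich, or follicle-poor arrays, poor) moved by over 1.5 times as follows. Iodide transport rich 5 became 2 (dim filter), and deiodinases rich 2 became 1 (quantile, median, normexp, table, 2-fold, intermediate Iyd), and deiodinases poor 1 became 2 (no block, p 0.05), 0 (slide). Thyroglobulin processing rich 5 became 3 (2-fold), and thyroglobulin processing poor 1 became 0 (quantile, table), 2 (intermediate Iyd), and fast muscle poor 1 became 0 (quantile, table, slide, scan day), 3 (normexp, weights), 4 (no block), 9 (replicate block, p 0.05), 5 (Iyd limit). Adipose tissue rich 2 became 1 (weights), and squamous epithelium poor 3 became 8 (normexp), 7 (no block, weights, Iyd limit), 1 (replicate block), 9 (p 0.05), 5 (intermediate Iyd), and airway rich 1 became 0 (dim filter), 2 (weights, p 0.05, intermediate Iyd). Erythroid cells rich 1 became 2 (no block, p 0.05), and fibroblasts poor 6 became 10 (no block, p 0.05, Iyd limit, intermediate Iyd), and Schwann cells poor 5 became 2 (slide), 3 (replicate block, 2-fold, scan day). Clock genes rich 2 became 1 (quantile, median, normexp, table, 2-fold, intermediate Iyd, scan day), and clock genes poor 7 became 3 (no block), 2 (2-fold), and cell cycle rich 1 became 0 (normexp, slide, replicate block, scan day). Cell cycle poor 1 became 0 (intermediate Iyd), and immediate early genes poor 1 became 2 (median, replicate block, weights, intermediate Iyd), 0 (2-fold, Iyd limit), and reference genes rich 1 became 2 (quantile, table), 0 (2-fold). Reference genes poor 4 became 1 (quantile, table, 2-fold). In these, table is the authors' normalized table, Iyd limit the limit of -3, dim filter a filter on probes near background, and intermediate Iyd the fit without arrays between -6 and -1, which like the scan day block was chosen after seeing the data. Leaving out each array in turn gave ranges of list counts, with the array named where 1 alone gave the end of a range. They were 1 to 2 for deiodinases rich, 4 without 0 kBq animal 3 to 8 for cartilage poor, 0 to 11 without 760 kBq animal 3 for fast muscle poor, 1 to 2 for adipose tissue rich. They were 1 to 8 without 1300 kBq animal 3 for squamous epithelium poor, 1 to 2 for airway rich, 1 to 2 without 4700 kBq animal 3 for erythroid cells rich, 3 to 10 for fibroblasts poor. They were 3 without 4700 kBq animal 3 to 7 for smooth muscle poor, 1 without 4700 kBq animal 3 to 6 for Schwann cells poor, 1 to 2 for clock genes rich, 0 to 1 for cell cycle rich. They were 0 to 1 for cell cycle poor, 0 to 2 for immediate early genes poor. Within the follicle-rich arrays, quantile normalization gave 0 calls at 170 kBq, 1 at 260 kBq and 1740 at 340 kBq, and leaving out 1 array gave 2 to 6 at 4700 kBq. The difference of Dbp reversed to 0.19 without the kBq block. For the 97 named genes, 1494 checks under the other alternatives kept direction and side of the limit, 40 lost and 8 gained the call, and over single arrays left out these numbers were 3402, 88 and 2. All 9 kBq groups hold both sets, so a fit on such groups alone is the same fit. The causes of these changes were not tested. Probes not well above background on any array of a set give bounds only, and for those measured on some arrays the size of the difference is less certain.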

Other observations

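Each irradiated group was also compared with the controls over both sets, since the groups held from 1 to 3 follicle-rich arrays. Without the set in the model, 0 probes were called in limma in any of the 8 groups, with 341 to 4153 probes at an unadjusted p below 0.05. Tg at 9 kBq was at a log2 ratio of -6.28 without the set in the model and at -3.35 with it, and at 340 kBq at -4.98 and -2.05. Nkx2-1 at 9 kBq was at -4.60 and -0.81, Pax8 at 9 kBq at -4.87 and -0.90, and Slc5a5 at 340 kBq at -3.93 and 0.30. None of these ratios was called, and all comparisons share the 4 controls. The sets were chosen by Iyd, and these genes did not overlap between them. A shift of their ratios with the set in the model therefore follows from the split and is no test of a cause.

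With the set as a term, chosen after seeing the data, the median residual SD was 0.576 instead of 0.666, and 2 probes were called at 9 kBq, 4 at 88 kBq, 2 at 170 kBq and 4 at 4700 kBq. Dbp, the clock output factor, fell at 9 kBq (-2.89 and -2.96 for 2 probes), 88 kBq (-2.84, -2.80 and -2.83 for 3 probes) and 170 kBq (-2.77 for 2 probes). At 260, 340, 760, 1300 and 4700 kBq a Dbp probe was at -2.47, -1.995, -0.97, -0.60 and 0.33, not called. Bmal1, a core clock activator, was called at 88 kBq (1.85). It was at 1.81, 1.70, 1.61 and 1.60 at 9, 170, 260 and 340 kBq, not called. At 760, 1300 and 4700 kBq it was at 0.83, 0.75 and -0.31. The order of injection and the kBq group cannot be told apart here either. At 4700 kBq Slc4a1 (3.82), Mdm2 (1.38), Pln (2.26) and a probe with no symbol rose.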
